A study of Mus musculus with 2 samples.

Results

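Cycling subventricular zone progenitors of the embryonic mouse medial ganglionic eminence (MGE) are described here. They are 238 cells with RNA of the cycle genes Top2a or Mki67 and of the homeobox factor Dlx2. They were chosen by their own measured values: Hes5 under 3, Dlx2 of at least 1, and Top2a and Mki67 summing to at least 3. They made up 238 of the 4001 cells in the series, or 5.95% (95% exact Clopper-Pearson interval 5.24% to 6.73%, which covers the counting of cells only). All cells came from MGE tissue of CD-1 embryos, an outbred mouse stock, at E11.5. The tissue was dissociated and run on the 10x Chromium droplet platform with MULTI-seq, a method in which lipid-anchored DNA barcodes mark each cell suspension so that several can share a run. The pool held material for 2 enhancers, hs192 and hs799. Its 6 suspensions comprised 4 sorted through a GFP gate, 2 for each enhancer, and 2 ungated ones, 1 for each enhancer. No map from cells to these suspensions was used here, so the matrix counts as 1 sample from pooled embryos, and the GFP gate can set the share of any kind of cell.

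The ganglionic eminences are the ventral forebrain zones that make GABAergic neurons, and the MGE is the source of many cortical interneurons and of pallidal and basal forebrain neurons, cholinergic ones included. Radial glia divide at the ventricle in the ventricular zone, where Notch signalling keeps them undifferentiated through effectors of the Hes family. Their daughters move to the subventricular zone, switch on neurogenic factors and Dlx factors, and may divide again before they become neurons. Cycling cells with Dlx2 and little Hes5 are taken here as dividing members of that zone, and their position in the tissue was not measured.

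Comparisons were made with the cells on the other side of each gate. The 941 Hes5-high cycling cells passed the same cycle gate (Top2a plus Mki67 of at least 3) with Hes5 of at least 3. The 2075 Dlx2 cells outside the cycle gate had Hes5 under 3 and Dlx2 of at least 1, but Top2a plus Mki67 under 3. A level is the summed value of a gene per 10000 summed values of a group, and the spread given with it is the standard deviation (SD) over cells of value per 10000. Ratios of levels are on a log2 scale with 0.05 added to each level, and a gene counts as higher or lower past 2-fold. Over all 12720 genes measured against the Hes5-high cycling cells, 2.21% were higher and 2.95% lower. Over all 13465 measured against the Dlx2 cells outside the cycle gate, 6.62% were higher and 4.26% lower. List counts are to be read beside these shares. With 1 library there is no spread between animals, so none of the differences carries a test or a p-value.

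The genes of the rule show how the gates cut the cells. Dlx2 ran from 1 to 26 in the cycling Dlx2 cells (median 6), against 0 to 17 in the Hes5-high cycling cells (median 0) and 1 to 18 in the Dlx2 cells outside the cycle gate (median 4). Top2a, a topoisomerase of dividing cells, had a median of 10 in the cycling Dlx2 cells and also 10 in the Hes5-high cycling cells, and Mki67, the proliferation antigen Ki-67, had a median of 5 in both. Hes5 was at 0 in 120 of the 238 cells. Among the 313 cycling cells with Hes5 under 3, 238 had Dlx2 (76.0%, 70.9% to 80.7%), whereas 385 of the 941 Hes5-high cycling cells had it (40.9%, 37.8% to 44.1%). The cycling Dlx2 cells were 10.3% (9.08% to 11.6%) of all 2313 cells with Dlx2 and Hes5 under 3. The remaining cells of the matrix outside these 3 groups numbered 384, 75, 121 and 167 in the other combinations of the gates.

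Cells at the edges of the gates were set beside their neighbours just outside. The 34 cells just inside the cycle gate (sum of 3) had a Tubb3 level of 19.8 and a Ube2c level of 5.67, against 24.5 and 2.21 in the 73 cells just outside it (sum of 2). The 35 cells with Hes5 of 2 had Tubb3 at 8.92 and Fabp7 at 3.04, against 7.52 and 5.88 in the 27 cycling cells with Dlx2 and Hes5 of 3. The 22 cells with Dlx2 of 1 had Dlx1 at 2.15 and Dlx5 at 2.01, against 0.171 and 0.241 in the 75 cycling cells with Hes5 under 3 and Dlx2 of 0. Tubb3 was alike on both sides of the Hes5 limit, whereas Dlx1 and Dlx5 differed across the Dlx2 limit.

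The matrix held 18088 genes, and cell totals lay between 10475 and 14196, a narrow range set by the authors' scaling, so raw depth is unknown. The median number of genes with a value per cell was 4310 in the cycling Dlx2 cells, against 4552 in the Hes5-high cycling cells and 3802 in the Dlx2 cells outside the cycle gate. A globin RNA had a value in most cells of each group, and its source was not tested. Hbb-y, an embryonic globin of red blood cells, had a value in 67.6% of the cycling Dlx2 cells, 69.8% of the Hes5-high cycling cells and 72.3% of the Dlx2 cells outside the cycle gate.

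The label was set beside other markers of the subventricular zone. Dlx2 and the Notch effector Hes5 chose the groups, so the levels of related markers are not independent of the gates. In the 385 Hes5-high cycling cells with Dlx2, Dlx1 stood at 3.15 and Gadd45g at 3.18, against 6.90 and 6.05 in the cycling Dlx2 cells. Besides Dlx2, the subventricular zone markers described were Dll1, Dll3, Hes6, Dlx1 and Gadd45g, and all 5 had a higher level in the cycling Dlx2 cells than in either other group. Gadd45g, a stress and growth arrest gene, stood at 6.05 (SD 7.87) in the cycling Dlx2 cells, against 1.47 (SD 4.76) in the Hes5-high cycling cells and 1.04 (SD 2.58) in the Dlx2 cells outside the cycle gate. Per cell, Gadd45g ranged from 0 to 91 with a median of 4 in the cycling Dlx2 cells, against 0 to 73 with a median of 0 in the Hes5-high cycling cells and 0 to 44 with a median of 0 in the Dlx2 cells outside the cycle gate, so single cells overlapped widely. It had a value in 83.2% of the cycling Dlx2 cells, against 30.7% of the Hes5-high cycling cells and 41.9% of the Dlx2 cells outside the cycle gate. Neuronal genes were present as well, Tubb3 having a value in 97.9% of the cells.

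Few genes peaked in the cycling Dlx2 cells. Of 12164 genes measured in both comparisons, 22 (0.181%) were past 2-fold above both other groups. The 22 included genes of the lists used here and genes outside them. Insm1, a zinc finger factor that promotes basal progenitors, stood at 1.89 (SD 1.76), against 0.484 in the Hes5-high cycling cells and 0.365 in the Dlx2 cells outside the cycle gate. Hes6, which opposes Hes1 and favours differentiation, stood at 4.02, against 1.41 and 1.79. Rgs16, a regulator of G protein signalling, stood at 0.918, against 0.357 and 0.332. Gsx1, a homeobox factor of ventral progenitors, was at 0.218, against 0.0697 and 0.0458. Outside the lists, Abracl, a small actin regulator, stood at 11.4 (SD 8.49), against 3.57 and 3.85. Slit1, an axon guidance ligand, was at 0.166, against 0.0168 and 0.0407, and Nin, which encodes the centrosome protein ninein, at 0.524, against 0.202 and 0.195.

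**Figure D1:**
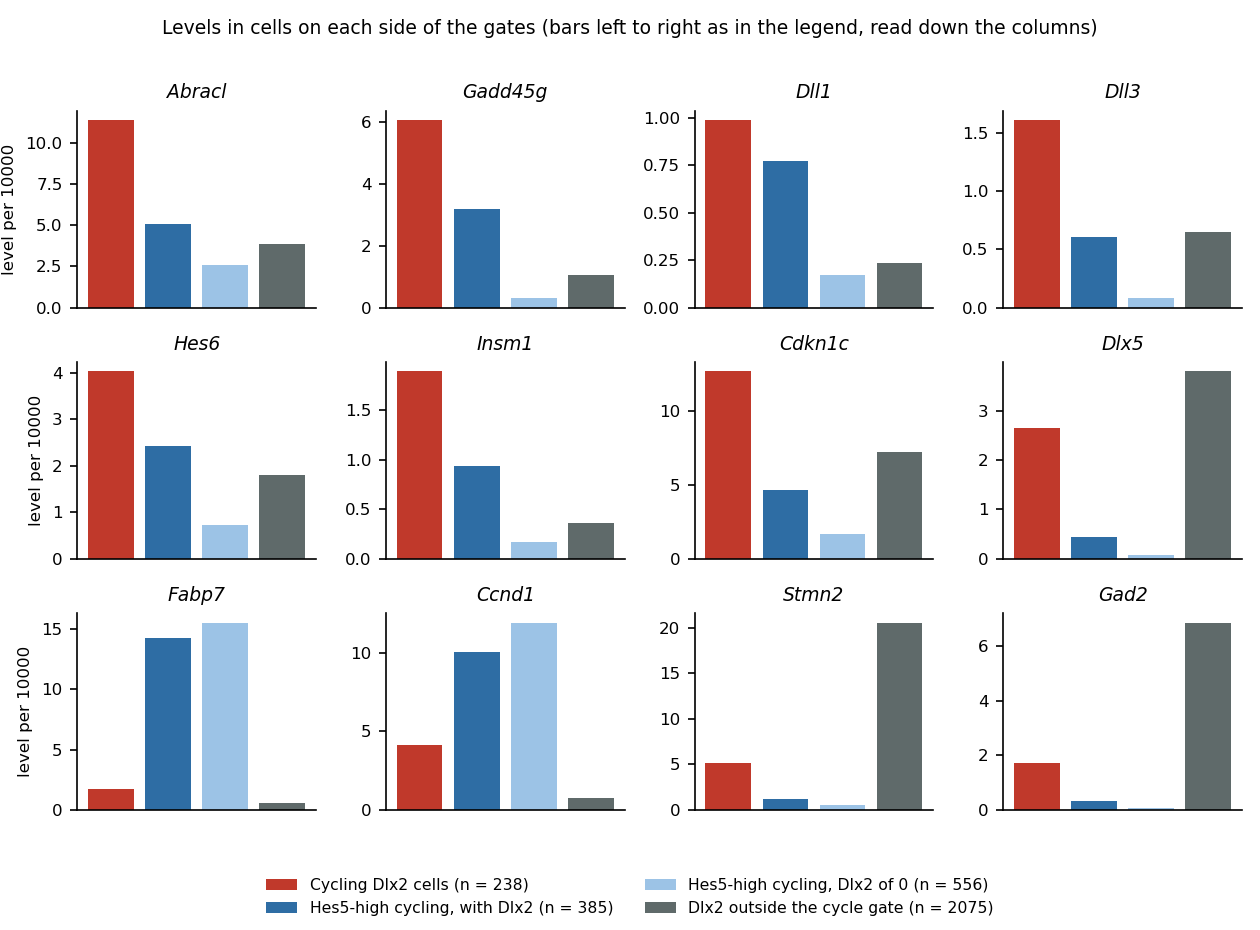
Levels of 12 genes (y axes, summed value per 10000 summed values of the group) in the 238 cycling Dlx2 cells, the Hes5-high cycling cells with and without Dlx2, and the Dlx2 cells outside the cycle gate, 1 bar per group and no error bars because there is 1 library. Abracl, Gadd45g, Dll1, Dll3, Hes6, Insm1 and Cdkn1c are highest in the cycling Dlx2 cells, while Fabp7 and Ccnd1 are highest in the Hes5-high cycling cells and Dlx5, Stmn2 and Gad2 are highest outside the cycle gate.

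The peak was smaller against Hes5-high cells that already had Dlx2. Compared with the 385 Hes5-high cycling cells that had Dlx2, all 22 genes were still higher in the cycling Dlx2 cells, and 8 of them past 2-fold. Gadd45g stood at 6.05 in the cycling Dlx2 cells, against 3.18 in the Hes5-high cycling cells with Dlx2 and 0.306 in those without, and Insm1 at 1.89, against 0.940 and 0.174. The 22 genes were selected on ratios to the larger group that holds these cells, so their common direction is not independent of that choice.

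Against the Hes5-high cycling cells, Notch genes split by role. Against the Hes5-high cycling cells, 5 of 10 measured receptors and effectors were past 2-fold lower in the cycling Dlx2 cells and 0 higher, with a median log2 ratio of -1.09, while over all 12720 genes measured 2.95% were lower, 2.21% higher and the median was -0.07. Hes1, the effector that acts beside Hes5, stood at 0.0977 in the cycling Dlx2 cells, against 1.09 in the Hes5-high cycling cells, and had a value in 13 of 238 cells (5.46%, 2.94% to 9.16%), against 575 of 941 (61.1%, 57.9% to 64.2%). Nrarp, a feedback target of Notch, stood at 0.234, against 1.34, Notch3 at 0.0651, against 0.412, and Hey1 at 0.0944, against 0.449. Notch1 was closer, at 1.31 (SD 1.32) against 2.28 (SD 1.4). Rbpj, the DNA-binding partner of the receptors, was not lower, at 1.18 against 0.817. Hes5 itself set the groups and is left out of these counts. Because Hes5 is a Notch effector too, the lower levels of the other effectors are not independent of that gate. Against the Dlx2 cells outside the cycle gate, 3 of 10 receptors and effectors were past 2-fold higher and 0 lower. The median there was 0.79, where 6.62% of all genes measured were higher and 4.26% lower.

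In the same comparison the ligand side ran the other way. Of 11 measured ligands and modulators, 5 were past 2-fold higher and 2 lower than in the Hes5-high cycling cells, with a median of 0.47. Dll1, the ligand by which committed cells activate Notch in their neighbours, stood at 0.986 (SD 1.32) in the cycling Dlx2 cells, against 0.413 (SD 0.949) in the Hes5-high cycling cells and 0.236 (SD 0.55) in the Dlx2 cells outside the cycle gate. It had a value in 60.5% (54.0% to 66.8%) of the cycling Dlx2 cells, against 28.6% (25.7% to 31.6%) and 20.7% (19.0% to 22.5%). Dll3, a family member that blocks Notch within the cell that makes it, stood at 1.61 (SD 1.48), against 0.297 (SD 0.752) and 0.655 (SD 1.33). Mfng, a glycosyltransferase that modifies Notch receptors, stood at 2.44, against 1.17 and 1.06, whereas its relative Lfng was at 0.0456, against 0.312 in the Hes5-high cycling cells and 0.00513 in the Dlx2 cells outside the cycle gate. Jag1, another ligand, was also lower than in the Hes5-high cycling cells, at 0.0423 against 0.151. The 385 Hes5-high cycling cells with Dlx2 were nearer to the cycling Dlx2 cells. In them Dll1 stood at 0.772 with a value in 45.7% of cells, Dll3 at 0.610 and Mfng at 1.74. Against the Dlx2 cells outside the cycle gate, 3 of 11 were higher and 1 lower, where 6.62% of all 13465 genes measured were higher and 4.26% lower. The median there was 0.07.

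Radial glial genes were mostly lower than in the Hes5-high cycling cells but not gone. Of 26 measured, 16 were past 2-fold lower and 0 higher, with a median of -1.21. Fabp7, a fatty acid binding protein of radial glia, ran from 0 to 18 per cell in the cycling Dlx2 cells (median 1), against 0 to 183 in the Hes5-high cycling cells (median 12). Its level was 1.71 (SD 2.35), against 15.0 (SD 17.4) in the Hes5-high cycling cells and 0.591 (SD 1.61) in the Dlx2 cells outside the cycle gate. Nes, the intermediate filament nestin, stood at 2.61, against 8.50 and 0.760. Vim, another intermediate filament, stood at 12, against 22.2 and 5.86. Ttyh1 was at 0.120 in the cycling Dlx2 cells and also 0.120 in the Dlx2 cells outside the cycle gate, against 1.35 in the Hes5-high cycling cells. Sox2 differed less, at 4.25 against 6.62 and 3.02. Summed over the list, the level was 30.3 in the cycling Dlx2 cells, against 82.1 and 17.8, and 11 of the 25 genes measured against the Dlx2 cells outside the cycle gate were past 2-fold higher and 0 lower.

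Outside the lists, the genes ranked lowest against the Hes5-high cycling cells included secreted and surface proteins. Igfbp5, an insulin-like growth factor binding protein, stood at 0.150, against 1.45. Nog, which encodes the BMP antagonist noggin, stood at 0.0326, against 0.445, and had a value in 4.20% of the cycling Dlx2 cells, against 40.0% of the Hes5-high cycling cells. Vcam1, an adhesion molecule, stood at 0.0488, against 0.539, and the Wnt ligand gene Wnt7b at 0.0651, against 0.525.

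Neurogenic factors were already high in the cycling Dlx2 cells. Of 28 measured genes of neurogenic commitment, 18 were past 2-fold higher and 1 lower than in the Hes5-high cycling cells, with a median of 1.42. Against the Dlx2 cells outside the cycle gate, 5 were higher and 8 lower, with a median of -0.33. Sox11, a SoxC factor of new neurons, had a median of 53.5 per cell in the cycling Dlx2 cells (range 3 to 133), against 12 (1 to 81) in the Hes5-high cycling cells and 67 (6 to 160) in the Dlx2 cells outside the cycle gate. Myt1, a zinc finger factor of neural differentiation, stood at 0.807, against 0.0713 and 1.24, and St18, its family member, at 0.762, against 0.0745 and 1.18. Dcx, the microtubule protein doublecortin of migrating neurons, stood at 1.26, against 0.177 and 4.66. Runx1t1 and Myt1l were the lowest against the Dlx2 cells outside the cycle gate, at 0.732 against 3.87 and at 0.417 against 2.22. Neurog1 and Neurog2, proneural factors of other lineages, had a value in 0.420% and 1.26% of the cycling Dlx2 cells, and Nhlh1 in 0 of 238 (upper bound 1.54%).

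**Figure D2:**
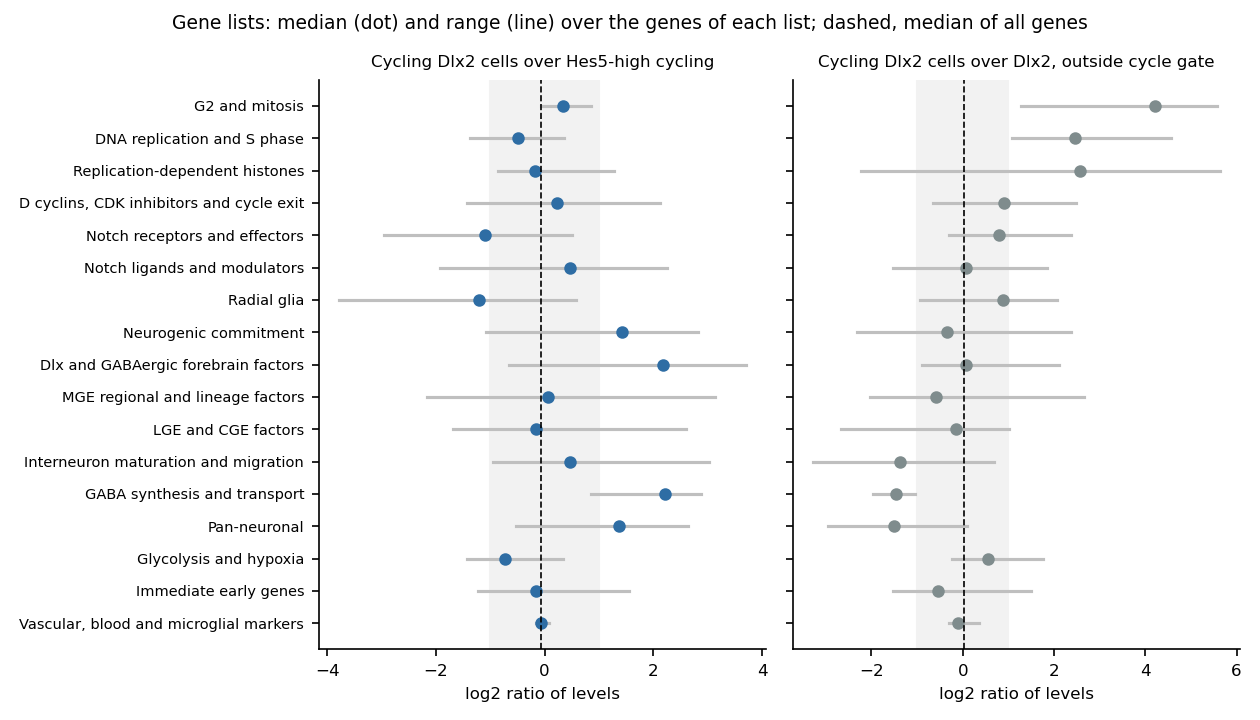
Median log2 ratio (dots) and range over the measured genes (grey lines) of 17 gene lists, for the cycling Dlx2 cells over the Hes5-high cycling cells (left) and over the Dlx2 cells outside the cycle gate (right), with the median of all genes dashed and ratios within 2-fold shaded. Neurogenic, Dlx, GABA and pan-neuronal lists lie to the right in the left panel, and the interneuron, GABA and pan-neuronal lists lie to the left in the right panel, where the cycle lists reach medians of 4.22 and 2.46.

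The Dlx network was on. Besides Dlx2, 8 of 13 measured factors of the GABAergic forebrain were past 2-fold higher than in the Hes5-high cycling cells and 0 lower, with a median of 2.18, and against the Dlx2 cells outside the cycle gate 4 of 14 were higher and 0 lower, with a median of 0.06. Dlx1, the neighbour of Dlx2 on chromosome 2, stood at 6.90 (SD 5.35) in the cycling Dlx2 cells, against 1.36 (SD 3.14) in the Hes5-high cycling cells and 4.86 (SD 4.48) in the Dlx2 cells outside the cycle gate. Sp9, a zinc finger factor of interneuron progenitors, stood at 5.28, against 0.511 and 3.83. Dlx2 helped to choose the groups, and it was at 0 in 556 of the 941 Hes5-high cycling cells. The counts against those cells are therefore not independent of the gate. In the 385 Hes5-high cycling cells with Dlx2, Dlx1 stood at 3.15 and Sp9 at 1.16. Dlx5 and Dlx6os1 were below their level outside the cycle gate, and Dlx6 was not. Dlx5 stood at 2.65, against 0.218 and 3.80, and had a value in 81.1% (75.5% to 85.9%) of the cycling Dlx2 cells, against 14.0% (11.9% to 16.4%) and 95.1% (94.1% to 96.0%). Gsx2, the relative of Gsx1, was at 0.267 in the cycling Dlx2 cells, against 0.265 in the Hes5-high cycling cells and 0.0237 in the Dlx2 cells outside the cycle gate. Dlx6os1 stood at 4.89, against 0.329 and 8.24, and Dlx6 at 1.18, against 0.107 and 0.974. The 2 overlap on opposite strands, as do Dlx1 and Dlx1as, and no source used here states whether strand was counted, so the split within each pair is uncertain.

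An MGE marker was found in most cells of each group, and MGE lineage factors were partly on in the cycling Dlx2 cells. Nkx2-1, the homeobox factor that specifies the MGE, had a value in 91.2% (86.8% to 94.5%) of the cycling Dlx2 cells, against 83.2% (80.7% to 85.5%) of the Hes5-high cycling cells and 77.7% (75.9% to 79.5%) of the Dlx2 cells outside the cycle gate. Its level was 4.32 (SD 3.10), against 2.32 and 2.97. Lhx6, the LIM-homeodomain factor of the interneuron lineage downstream of Nkx2-1, stood at 1.62 (SD 1.92), against 0.150 (SD 0.555) and 2.65 (SD 2.27). Lhx8, its relative needed for cholinergic neurons, stood at 2.42 (SD 3.10), against 0.233 (SD 0.769) and 5.92 (SD 5.86). Lmo1, a LIM-only cofactor, differed little between the cycling groups, at 12.5 against 11.7, and was at 1.94 outside the cycle gate. Olig2, a bHLH factor of ventral progenitors, stood at 0.898, against 2.49 and 0.110, and Otx2 at 0.202, against 1.07 and 0.0790. Over the list, 4 of 23 genes were higher and 4 lower than in the Hes5-high cycling cells, where 2.21% of all genes were higher and 2.95% lower. Against the Dlx2 cells outside the cycle gate, 3 of 21 were higher and 6 lower, where 6.62% of all genes were higher and 4.26% lower. Isl1, a LIM-homeodomain factor of cholinergic and striatal neurons, had a value in 45.4% (38.9% to 51.9%) of the cycling Dlx2 cells, against 15.9% (13.7% to 18.4%) and 32.9% (30.8% to 34.9%).

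Lhx6 and Lhx8 were often found in the same cell of the group. Of the 238 cells, 108 had both (45.4%, 38.9% to 51.9%), 40 had Lhx6 only, 48 had Lhx8 only and 42 had neither. Lhx8 had a value in 73.0% (65.1% to 79.9%) of the 148 cells with Lhx6, against 53.3% (42.5% to 63.9%) of the 90 without, at similar median numbers of genes (4269 and 4335). Lhx6 had a value in 13.5% and Lhx8 in 18.3% of the Hes5-high cycling cells. At a value of at least 2, the shares among the cycling Dlx2 cells were 46.6% for Lhx6 and 46.2% for Lhx8, against 3.29% and 4.25% in the Hes5-high cycling cells and 67.0% and 66.8% in the Dlx2 cells outside the cycle gate.

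The cells with both factors carried more neuronal RNA than those with neither. Stmn2, which encodes a microtubule regulator of growing axons, stood at 7.47 in the 108 cells with both, against 1.44 in the 42 with neither, and Gad2, a GABA-making enzyme, at 2.60 against 0.311. Ccnd1, cyclin D1 of the G1 phase, ran the other way, at 1.91 against 9.88, as did Gadd45g, at 3.91 against 11.6. Nkx2-1 was at 4.46 in the cells with both, against 3.77 in those with neither. The cells with a single factor were mostly between. Isl1 stood at 1.96 in the 48 cells with Lhx8 only, against 0.597 in the 40 with Lhx6 only, and Zic1 at 0.728 against 0.0578, with a value in 45.8% against 5.0% of cells. Cdkn1c stood at 23.0 in the cells with Lhx8 only, against 7.63 in those with Lhx6 only. These subsets are of 1 library and were split by measured values, so they describe the cells and are not tests.

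**Figure D3:**
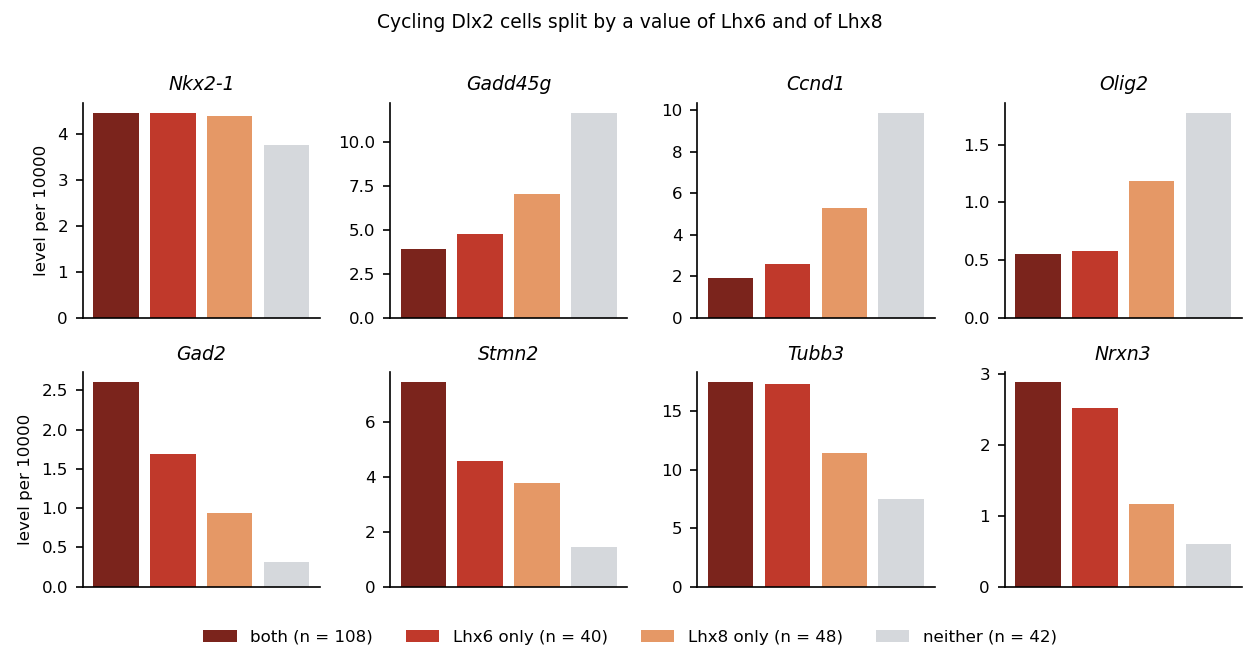
Levels of 8 genes (y axes, summed value per 10000) in the cycling Dlx2 cells split by whether Lhx6 and Lhx8 had a value, with the cells that had both at the left and those that had neither at the right of each panel. Gadd45g, Ccnd1 and Olig2 are highest in the 42 cells with neither, Nkx2-1 differs little, and Gad2, Stmn2, Tubb3 and Nrxn3 are highest in the 108 with both.

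Cell cycle genes stood close to those of the Hes5-high cycling cells. Both groups passed the same gate on Top2a and Mki67, so this closeness is not independent of the gate. Of 44 genes of G2 and mitosis, 0 were past 2-fold in either direction and the median was 0.34, with 41 above 0. Of 38 genes of DNA replication and S phase, 3 were lower, 0 higher, and the median was -0.49, with 36 below 0. Both medians changed sign without the cells with Tubb3 of 10 or more, to -0.14 for G2 and mitosis and to 0.20 for S phase. The 3 were Ung, at 0.231 against 0.674, Gins2, at 0.527 against 1.32, and Cdt1, a replication licensing factor, at 0.244 against 0.545. Ube2c, the ubiquitin-conjugating enzyme of mitotic exit, stood at 11.7 (SD 12.0), against 6.83 (SD 8.49), and Cdc20, an activator of the anaphase-promoting complex, at 3.64 against 2.22. Rrm2, a subunit of the enzyme that makes deoxynucleotides, stood at 8.41 against 6.56, whereas Mcm6 of the replicative helicase was at 1.22 against 2.18 and Pcna, the replication clamp, at 0.755 against 1.08.

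Against the Dlx2 cells outside the cycle gate, all 44 mitotic and all 38 S phase genes were past 2-fold higher, with medians of 4.22 and 2.46. Top2a and Mki67 chose the groups on this side, so these counts show what came with the gate and nothing beyond it. Prc1, which bundles spindle microtubules in cytokinesis, had the largest ratio of the mitotic list, at 4.62 against 0.0478. Genes outside the lists that ranked highest were of the same kind, among them Spc25 and Knl1 of the kinetochore, at 2.84 against 0.0442 and 1.87 against 0.0190, and Aspm, a spindle pole protein, at 1.60 against 0.0166. Of 55 measured histone genes, 50 were higher and 2 lower. Hist1h1b, a linker histone, stood at 24.0, against 0.433. The 2 that were lower, Hist3h2ba and Hist3h2a, stood at 3.19 against 12.5 and at 0.407 against 2.08, with 1.29 and 0.186 in the Hes5-high cycling cells. Histone genes have near-identical copies, so values of single members are uncertain.

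The 238 cells included histone-rich and mitotic ones. Summed over the histone list, deposited values per cell had a median of 36.5 in the cycling Dlx2 cells, with quartiles of 18.0 and 324, against a median of 194 with quartiles of 19.0 and 343 in the Hes5-high cycling cells. In the Dlx2 cells outside the cycle gate the highest sum was 120. It was above 120 in 106 of 238 cycling Dlx2 cells (44.5%, 38.1% to 51.1%), against 529 of 941 Hes5-high cycling cells (56.2%, 53.0% to 59.4%). A mitotic sum of 100 or more was found in 139 cycling Dlx2 cells (58.4%, 51.9% to 64.7%), against 441 Hes5-high cycling cells (46.9%, 43.6% to 50.1%). In 9 cycling Dlx2 cells (3.78%, 1.74% to 7.06%), both the S phase and the mitotic sum stayed within the 90th percentile of the cells outside the cycle gate, against 0 of 941 Hes5-high cycling cells (upper bound 0.391%). The 106 and 139 cells shared 62, and these limits on the sums were chosen after the values were seen.

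**Figure D4:**
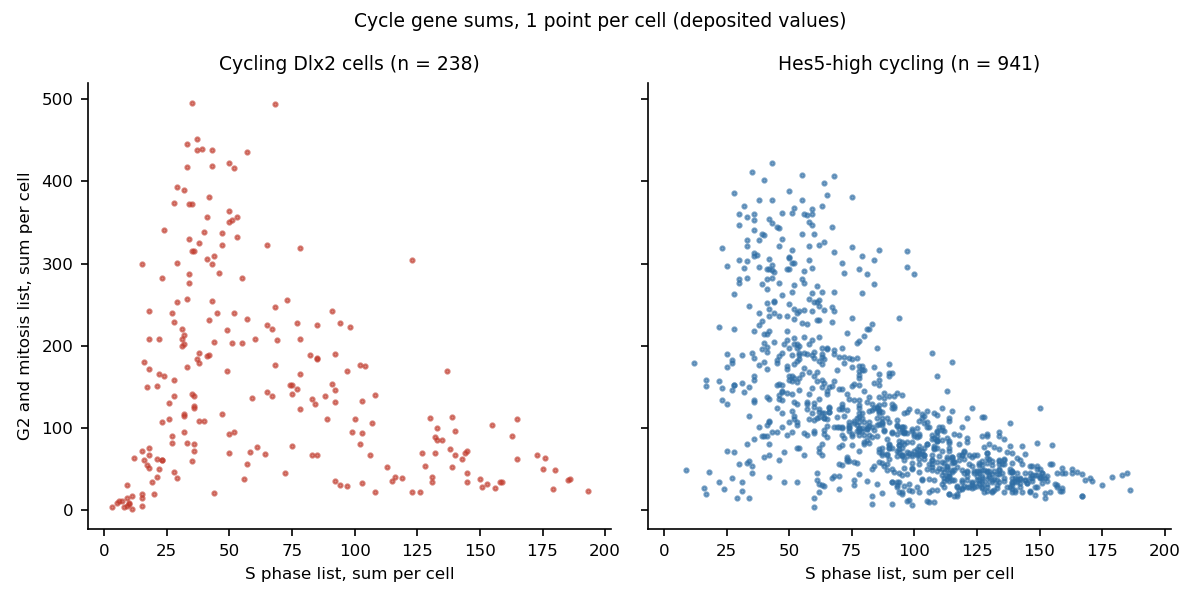
Summed deposited values per cell of the S phase list (x axis) and of the G2 and mitosis list (y axis) for the 238 cycling Dlx2 cells (left) and the 941 Hes5-high cycling cells (right), 1 point per cell. The Hes5-high cycling cells run along a band of high S phase and low mitotic sums to the reverse, and the cycling Dlx2 cells add points near the origin, where both sums are low.

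Neuronal RNA was higher in the mitotic cells without a high histone sum than in the histone-rich cells. The former were 77 cells with a mitotic sum of 100 or more and no histone sum past 120. The latter were 106 cells, of which 62 also had a mitotic sum of 100 or more, so the split is by histone sum. Tubb3 stood at 18.3 and Stmn2 at 6.53 in the 77 cells, against 9.93 and 2.22 in the 106. Gadd45g stood at 5.28 in the 77 cells, against 7.33 in the 106, and Lhx8 at 3.12 against 1.57. Across the 238 cells the neuronal sum had a weak correlation with the mitotic sum (Pearson's r 0.06, Spearman's rho 0.09) and a negative one with the radial glial sum (r -0.44, rho -0.41). These are descriptions over cells that share a library and a narrow range of totals.

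Promoters of the cycle genes were searched for short motifs, because these genes stood high together. The windows were 250 bases before to 50 after each start, from RefSeq on build GRCm38.p6. They covered 38 of the 44 mitotic genes, 30 of the 38 S phase genes and 27025 genes in all, with or without a row in the matrix. TTTGAA, the cell cycle homology region recognised in late cell cycle promoters, was found on either strand in at least 1 window of 25 of the 38 mitotic genes (65.8%), against 4 of 30 S phase genes (13.3%) and 20.2% of all genes, and also in 4 of 10 Dlx and GABAergic factors (40.0%). The E2F motifs TTTCCCGC and TTTGGCGC were found in 0 of the 38 mitotic genes, against 11 of 30 S phase genes (36.7%) and 1.80% of all. CCAAT was found in 73.7% of mitotic genes, 63.3% of S phase genes and 41.1% of all, and it was as frequent in lists of other genes, such as 72.7% of the neurogenic genes, 60.0% of the Dlx and pan-neuronal ones and 59.1% of the radial glial ones. Among the 11282 genes with a window and a row in the matrix, TTTGAA was found in 14.1%, the E2F motifs in 3.34% and CCAAT in 43.1%. A match describes letters in a window and is not a site shown to be bound. The promoters of Ube2c (chr2:164769679-164769978, plus strand), Cdc20 (chr4:118437294-118437593, minus strand), Cenpf, a kinetochore protein gene (chr1:189688037-189688336, minus strand), and Ccnb1, the gene of cyclin B1 (chr13:100786437-100786736, minus strand), are shown 5′ to 3′ along the gene, chosen after their values were seen to stand for genes with and without TTTGAA, with matches to TTTGAA and CCAAT on either strand in capitals. In Ube2c the TTTGAA match begins 29 bases before the start on the reverse strand and in Cdc20 18 bases before it, whereas Cenpf has it from base 3 after the start and the Ccnb1 window has CCAAT only.
Ube2c: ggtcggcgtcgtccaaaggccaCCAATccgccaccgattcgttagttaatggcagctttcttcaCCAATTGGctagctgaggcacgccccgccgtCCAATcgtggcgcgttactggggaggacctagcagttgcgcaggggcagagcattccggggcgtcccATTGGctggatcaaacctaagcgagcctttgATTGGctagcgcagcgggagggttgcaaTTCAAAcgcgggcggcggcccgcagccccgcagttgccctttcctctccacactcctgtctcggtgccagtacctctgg
Cdc20: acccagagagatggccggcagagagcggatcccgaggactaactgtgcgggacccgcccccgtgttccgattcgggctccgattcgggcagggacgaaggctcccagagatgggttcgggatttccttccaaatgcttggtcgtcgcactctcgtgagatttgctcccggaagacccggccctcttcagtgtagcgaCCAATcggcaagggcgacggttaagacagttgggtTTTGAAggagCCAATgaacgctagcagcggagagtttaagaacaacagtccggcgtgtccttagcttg
Cenpf: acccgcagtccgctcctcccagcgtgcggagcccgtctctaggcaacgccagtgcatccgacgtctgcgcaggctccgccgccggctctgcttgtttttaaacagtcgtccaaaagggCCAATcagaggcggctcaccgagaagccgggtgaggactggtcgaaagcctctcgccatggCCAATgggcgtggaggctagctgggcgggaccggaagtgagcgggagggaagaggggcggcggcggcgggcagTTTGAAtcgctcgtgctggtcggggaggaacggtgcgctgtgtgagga
Ccnb1: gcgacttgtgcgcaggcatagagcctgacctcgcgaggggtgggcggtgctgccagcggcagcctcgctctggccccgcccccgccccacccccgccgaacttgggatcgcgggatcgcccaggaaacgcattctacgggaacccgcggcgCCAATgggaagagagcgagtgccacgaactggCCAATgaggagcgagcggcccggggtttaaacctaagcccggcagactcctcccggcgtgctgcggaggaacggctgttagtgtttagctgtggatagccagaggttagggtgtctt

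The E-box CAGCTG, a motif of bHLH factors, was searched in the same way. It was found in at least 1 window of 9 of 22 neurogenic genes (40.9%) and 4 of 11 Notch ligand genes (36.4%), against 18.3% of all genes, 4 of 38 mitotic genes (10.5%) and 1 of 10 Dlx and GABAergic factors (10.0%). Pan-neuronal genes, which were lower than outside the cycle gate, had it as often, in 4 of 10 (40.0%). Of the 22 genes above both other groups, 15 matched and 7 had it (46.7%). Among genes with a window and a row in the matrix the share was 18.1%. The counts are small. Gadd45g (chr13:51846425-51846724, plus strand) and Dll3 (chr7:28301736-28302035, minus strand), which had some of the highest ratios to both other groups, have it 55 and 7 bases before the start, in capitals in the windows shown 5′ to 3′ along the gene.
Gadd45g: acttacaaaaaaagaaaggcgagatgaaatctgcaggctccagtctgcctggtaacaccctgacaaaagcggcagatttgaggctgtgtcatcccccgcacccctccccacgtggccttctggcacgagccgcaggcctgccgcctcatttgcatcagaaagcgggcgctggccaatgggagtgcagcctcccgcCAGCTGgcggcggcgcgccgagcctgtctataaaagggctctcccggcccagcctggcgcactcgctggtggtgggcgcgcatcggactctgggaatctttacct
Dll3: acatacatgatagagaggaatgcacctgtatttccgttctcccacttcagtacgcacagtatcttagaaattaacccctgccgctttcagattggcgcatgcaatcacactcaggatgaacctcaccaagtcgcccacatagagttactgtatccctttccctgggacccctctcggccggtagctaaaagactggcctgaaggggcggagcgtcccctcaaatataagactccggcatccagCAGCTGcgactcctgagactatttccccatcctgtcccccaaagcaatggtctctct

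Some genes of cycle exit were on in cells past the cycle gate. Of 18 measured cyclins, inhibitors and exit genes, 4 were past 2-fold higher and 2 lower than in the Hes5-high cycling cells (median 0.24). Against the Dlx2 cells outside the cycle gate, 7 were higher and 0 lower (median 0.90). Cdkn1c, the imprinted CDK inhibitor p57, ran from 0 to 264 per cell in the cycling Dlx2 cells (median 9), against 0 to 136 (median 1) in the Hes5-high cycling cells and 0 to 234 (median 6) in the Dlx2 cells outside the cycle gate. Its level was 12.7 (SD 20.8), against 2.88 (SD 7.36) and 7.23 (SD 11). Cdkn2d, another CDK inhibitor, stood at 1.31, against 0.547 and 1.06, and Btg1, an antiproliferative gene, at 1.37, against 0.655 and 2.19. Ccnd1 was lower than in the Hes5-high cycling cells, at 4.12 (SD 6.40) against 11.2 (SD 5.84), with 0.763 outside the cycle gate. Ccnd2, cyclin D2, stood at 5.0, against 3.56 and 2.10, so the pair of D cyclins lay in opposite directions against the Hes5-high cycling cells. Cdk6 was at 0.111, against 0.298 and 0.0178, and Btg2, a marker of neurogenic divisions, at 0.918, against 1.03 and 0.293. The 7 genes higher than outside the cycle gate included Ccnd1, Ccnd2 and Cdk6, but not Cdkn1c, Cdkn2d or Btg1.

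Neuronal genes stood below their level in the Dlx2 cells outside the cycle gate and above that in the Hes5-high cycling cells. Of 21 pan-neuronal genes, 0 were past 2-fold higher and 15 lower than in those cells, with a median of -1.50, and 14 were higher and 0 lower than in the Hes5-high cycling cells, with a median of 1.37. Without the cells with Tubb3 of 10 or more, a list member itself, these medians were -2.24 and 0.40. Tubb3, the neuronal tubulin, ranged from 0 to 53 per cell in the cycling Dlx2 cells with quartiles of 10 and 26, against quartiles of 0 and 5 in the Hes5-high cycling cells and of 28 and 48 in the Dlx2 cells outside the cycle gate. Its level was 14.4 (SD 9.30), against 2.68 (SD 4.07) and 31.4 (SD 12.1). Stmn2 stood at 5.17 (SD 6.45), against 0.785 (SD 1.56) and 20.5 (SD 12.1). Ina, a neuronal intermediate filament, and Mapt, the microtubule protein tau, stood at 0.785 against 6.36 and at 0.358 against 2.98 outside the cycle gate. Elavl4, an RNA-binding protein of new neurons, did not follow them, at 2.12 against 0.320 in the Hes5-high cycling cells and 1.99 in the Dlx2 cells outside the cycle gate, and Nefm was at 1.01 against 0.268 and 0.954.

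**Figure D5:**
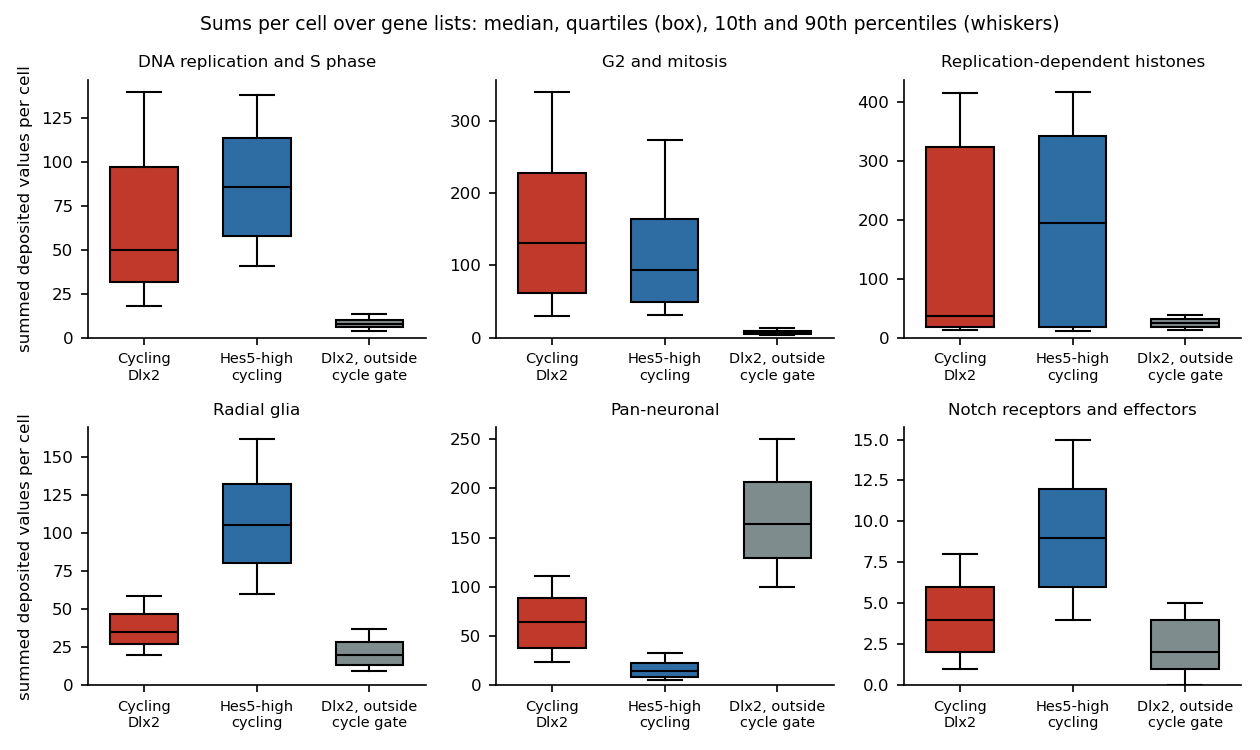
Summed deposited values per cell over 6 gene lists (y axes) in the 238 cycling Dlx2 cells, the 941 Hes5-high cycling cells and the 2075 Dlx2 cells outside the cycle gate; boxes give quartiles with the median, and whiskers the 10th and 90th percentiles. The pan-neuronal sum has a median of 64.5 in the cycling Dlx2 cells, between 14.0 and 164, and the radial glial sum a median of 35.0, between 105 and 20.0.

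The machinery of GABA was between the other groups too. All 5 measured genes were past 2-fold lower than outside the cycle gate, with a median of -1.45, and 3 were higher than in the Hes5-high cycling cells, with a median of 2.22. The median against the Hes5-high cycling cells was 0.53 without the cells with Tubb3 of 10 or more, 1.29 with a pseudocount of 0.2 and 2.85 with one of 0.01. Gad2 had a value in 63.0% (56.6% to 69.2%) of the cycling Dlx2 cells, against 15.6% (13.4% to 18.1%) and 96.6% (95.8% to 97.4%). Gad1, the other GABA-making enzyme, had a value in 27.7% (22.1% to 33.9%), against 5.21% (3.88% to 6.83%) and 67.4% (65.4% to 69.4%). Slc32a1, the vesicular GABA transporter, stood at 0.762, against 0.0817 and 1.85. Of 23 interneuron genes, 15 were lower than outside the cycle gate and 0 higher, with a median of -1.38. The neuropeptide genes Sst and Npy stood at 0.0391 against 0.814 and at 0.189 against 1.25, and Sst had a value in 5.04% of the cycling Dlx2 cells, about its share of 5.42% in the Hes5-high cycling cells. Nrxn3, a synaptic adhesion gene, stood at 2.07 against 0.212 in the Hes5-high cycling cells and 5.46 outside the cycle gate. A gene outside the lists that ranked among the lowest against the Dlx2 cells outside the cycle gate was Pnoc, a neuropeptide precursor gene, at 0.0619 against 0.540.

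The cells varied among themselves along the same line. In the 58 cells with Tubb3 under 10, Gadd45g stood at 9.03, Ccnd1 at 9.59 and Fabp7 at 3.40, against 5.09, 2.35 and 1.17 in the 180 cells with Tubb3 of 10 or more. Dlx5 stood at 0.826 in the cells with low Tubb3, against 3.24, Lhx6 at 0.413 against 2.02, and Gad2 at 0.293 against 2.16. Dlx1 and Nkx2-1 differed less, at 7.74 against 6.63 and at 4.04 against 4.42. Cdkn1c stood at 11.7 against 12.9. Gad2 and Ccnd1 were negatively correlated across the 238 cycling Dlx2 cells (Pearson's r -0.34, Spearman's rho -0.57, cells of 1 library), against a weaker relation across the 941 Hes5-high cycling cells (r -0.20, rho -0.20).

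Markers of other cell types were low. Of 13 glutamatergic and dorsal markers 9 had a row, with a summed level of 0.0586 in the cycling Dlx2 cells, against 0.144 in the Hes5-high cycling cells and 0.0667 in the Dlx2 cells outside the cycle gate, and Sim1 was at 0. Of 18 vascular, blood and microglial markers 7 had a row, with a summed level of 1.4, against 1.36 and 1.69, most of it globin. Of 5 oligodendrocyte lineage markers 4 had a row and summed to 1.02, against 2.75 and 0.129, of which Olig2 was 0.898, while Sox10 was at 0.00977. Droplets that hold a pair of cells can carry genes of both. Scrublet called 6 of 4001 cells, a rate at which the caller cannot be taken to have worked, and 1 of them was a cycling Dlx2 cell. Scores in the top 5% were given to 18 cycling Dlx2 cells (7.56%, 4.54% to 11.7%), against 3.72% (2.60% to 5.14%) of the Hes5-high cycling cells and 5.88% (4.91% to 6.98%) of the Dlx2 cells outside the cycle gate. Leaving out the cells with those scores moved no list median by 1.5-fold. The scores come from the same caller, so this cannot show whether pairs of cells remained in the group.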

How the data were processed

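The deposited matrix holds, for each gene and cell, a score that the authors made from unique molecular identifier counts by scaling cells to a common depth and rounding to whole numbers, as judged from the values, so counts and raw depth are unknown and no count model was used. Per the submitters' processing notes, bcl2fastq, Cell Ranger 3.0.2 and GRCm38 were used; no source used here states how strand was counted. The matrix has 18088 genes and 4001 cells of 1 pool, with totals of 10475 to 14196 per cell. Cells were grouped by the stated gates. Levels were summed values per 10000, ratios used a pseudocount of 0.05, and a gene was measured in a comparison with at least 30 summed values over both groups. Shares have exact 95% Clopper-Pearson intervals for cell counting error alone. No test across samples was possible with 1 pool, and the calculation was tested on simulated data with 200 changed genes. Named genes are members of 19 lists (those with the highest levels or largest ratios), the 10 genes at each end of each comparison among genes found in at least 10% of cells of a group, and genes past 2-fold above both groups; other named genes, the splits by Tubb3, Lhx6 and Lhx8 and the printed promoters were chosen after the values were seen. The members and lists were chosen with earlier results of these data known. Results on some genes of the lists are not reported here. Doublets were scored with Scrublet in scanpy 1.11.5 (expected share 5%). Scripts used python 3.11.15, numpy 2.4.6, pandas 2.3.3, scipy 1.17.1 and matplotlib 3.10.9. Alternatives varied each gate, the pseudocount, the filter, the scale, the comparison cells and the cells kept.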

Additional observations from a re-analysis of the deposited data

How the results depend on the processing

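Over 753 recomputed values, 677 stayed within 1.5-fold (for shares, within the interval) and 76 moved. Of 595 list medians, 22 changed sign, 8 of them without the cells with Tubb3 of 10 or more, and all 22 were at most 0.49 in size with the stated gates, so 0 medians past 2-fold reversed; the cause of the moves was not tested. The share of cycling Dlx2 cells was 5.95% with the stated gates, 4.97% with Dlx2 of at least 3, 4.75% with Top2a and Mki67 summing to at least 5, 5.12% with each at least 1, 3.0% with Hes5 of 0 and 1.52% without cells with Tubb3 of 10 or more. Without those Tubb3 cells, the neurogenic median against the Hes5-high cycling cells was 0.77 with 91 genes higher, and against the Dlx2 cells outside the cycle gate the GABA and pan-neuronal medians were -3.09 and -2.24 with 1406 genes higher and 1309 lower. Against only the Hes5-high cycling cells with Dlx2 of 0, the neurogenic median was 2.27. Counts past 2-fold depended on the pseudocount. With 0.01, they were 460 higher and 1049 lower against the Hes5-high cycling cells and 1415 higher and 1279 lower against the Dlx2 cells outside the cycle gate; with 0.2, they were 129 and 98, and 428 and 226. A difference of mean log2 values, a scale with smaller differences for low genes, gave 27 and 13, and 94 and 40. On it the medians against the Hes5-high cycling cells were -0.24 for Notch receptors and effectors, -0.61 for radial glia, 0.48 for the neurogenic and 0.28 for the Dlx list, and against the Dlx2 cells outside the cycle gate 1.08 for the mitotic and -0.63 for the GABA list. The mitotic median against the Dlx2 cells outside the cycle gate was 5.04 with 0.01 and 2.92 with 0.2, and the Dlx median against the Hes5-high cycling cells was 1.17 with 0.2. At a value of at least 2, shares were 46.6% for Lhx6, 46.2% for Lhx8 and 40.3% for Gad2, and Gad2 was 54.2% after thinning to 10000 values. A further 21 list medians, some given above with their results, and 18 shares of cells with other genes moved. A planned filter on cells with few values of 1 removed 0 cells, and leaving out cells that skip the value 1, chosen after seeing the data, was run in its place. No paired analysis was possible because there is 1 library, and raw depth is unknown.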

Other observations

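Most glycolytic genes were within 2-fold of both other groups. Of 15 measured against the Hes5-high cycling cells, 1 was past 2-fold lower in the cycling Dlx2 cells and 14 were below 0, with a median log2 ratio of -0.73, where 2.95% of all genes were past 2-fold lower. Of 14 measured against the Dlx2 cells outside the cycle gate, 2 were past 2-fold higher and 4 below 0, with a median of 0.56, where 6.62% of all genes were past 2-fold higher. The gene past 2-fold, Ldha, which encodes a lactate dehydrogenase subunit, stood at 2.66 in the cycling Dlx2 cells, against 7.2 in the Hes5-high cycling cells and 0.751 in the Dlx2 cells outside the cycle gate. Eno1, an enolase, stood at 2.32, against 4.59 and 1.37.

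Factors of the neighbouring lateral and caudal eminences did not move together. Of 16 measured against the Hes5-high cycling cells 3 were higher and 3 lower, where 2.21% of all genes were higher and 2.95% lower. Of 17 measured against the Dlx2 cells outside the cycle gate 1 was higher and 3 lower, where 6.62% of all genes were higher and 4.26% lower. Prox1, a homeobox factor of caudal eminence interneurons, stood at 1.18 in the cycling Dlx2 cells, against 0.166 and 0.735. Meis2, a homeobox factor of lateral eminence derivatives, stood at 1.41, against 3.55 and 1.14. Meis2 had a value in 63.9% of the cycling Dlx2 cells and Prox1 in 62.6%. Ebf1, a factor of striatal neurons, stood at 0.0619, against 0.0505 and 0.659. Among 11 immediate early genes measured against the Hes5-high cycling cells, 2 were higher and 1 lower, and Jun stood at 1.37, against 3.27 in the Hes5-high cycling cells and 2.12 in the Dlx2 cells outside the cycle gate.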
